A study of Homo sapiens with 3 samples.

Results

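Metallothioneins and the genes that handle zinc with them were followed after siRNA transfection in HepG2 cells, a long-established line from a human liver carcinoma. The 10 genes were taken by their symbol in the annotation of the array platform: 7 metallothioneins (MT2A, MT1E, MT1F, MT1G, MT1H, MT1M and MT1X), the transcription factor gene MTF1 and the transporter genes SLC30A1 and SLC39A14. Each was represented by 1 probe, so 10 of 24460 probes and 10 of 17559 named genes are described. The rule that picks them uses gene symbols only, not values, but the members were chosen with earlier results of these data known. All cells received 10 nM of siRNA with a lipid reagent and were harvested after 72 h, and the 3 groups were a negative control siRNA, an siRNA to villin, the microvillar actin-bundler encoded by VIL1, and an siRNA to PTK7, a receptor-like pseudokinase. The labels name 2 villin siRNAs without saying which was on the array. Total RNA was amplified, labelled with the dye Cy5 and read on single-colour arrays, with 1 array per group. No difference therefore has a replicate check, no test was run, the spread between cultures is unknown, and every value describes these 3 arrays only.

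Metallothioneins are small, cysteine-rich proteins that bind zinc, copper and cadmium in the cytosol and buffer free zinc. Their genes lie side by side on chromosome 16, and in liver cells their transcription is induced by metals through MTF1, a zinc-sensing zinc-finger factor that binds metal response elements, and also by glucocorticoids and oxidative stress. SLC30A1 (ZnT1) exports zinc across the plasma membrane and is itself an MTF1 target, while SLC39A14 (ZIP14) imports zinc, iron and manganese into hepatocytes and is induced by interleukin 6. The metallothionein genes are close paralogues in sequence, so their probes may read one another's transcripts. The probe sequences were not used here, and how much of each signal came from a paralogue was not tested.

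The promoters are shown because metal response elements are the sites through which zinc acts on these genes. Of the 10 genes, 5 had an entry in the RefSeq promoter table of build GRCh38.p14. The 250 bases before the annotated start are printed 5′ to 3′ on the gene's strand for the 3 metallothioneins among them and for SLC30A1, and capitals mark matches to the core of the metal response element, searched as TGCGCNC and TGCACNC on both strands.
MT2A, chr16:56608334-56608583, plus strand: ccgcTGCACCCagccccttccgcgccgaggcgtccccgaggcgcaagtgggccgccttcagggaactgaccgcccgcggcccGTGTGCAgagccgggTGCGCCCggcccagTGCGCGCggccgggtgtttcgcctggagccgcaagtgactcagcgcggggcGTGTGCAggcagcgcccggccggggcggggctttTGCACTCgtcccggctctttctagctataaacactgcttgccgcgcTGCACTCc
MT1H, chr16:56669564-56669813, plus strand: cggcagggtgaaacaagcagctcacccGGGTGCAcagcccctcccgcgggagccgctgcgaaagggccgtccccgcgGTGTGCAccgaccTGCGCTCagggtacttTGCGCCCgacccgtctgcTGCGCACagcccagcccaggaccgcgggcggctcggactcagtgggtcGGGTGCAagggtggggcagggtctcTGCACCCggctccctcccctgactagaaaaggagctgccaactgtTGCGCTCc
MT1X, chr16:56682220-56682469, plus strand: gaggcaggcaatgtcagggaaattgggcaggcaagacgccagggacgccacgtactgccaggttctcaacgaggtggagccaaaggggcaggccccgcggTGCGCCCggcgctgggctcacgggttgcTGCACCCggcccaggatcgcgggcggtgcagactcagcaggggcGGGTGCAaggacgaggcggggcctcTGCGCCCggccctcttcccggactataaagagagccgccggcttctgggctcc
SLC30A1, chr1:211579162-211579411, minus strand: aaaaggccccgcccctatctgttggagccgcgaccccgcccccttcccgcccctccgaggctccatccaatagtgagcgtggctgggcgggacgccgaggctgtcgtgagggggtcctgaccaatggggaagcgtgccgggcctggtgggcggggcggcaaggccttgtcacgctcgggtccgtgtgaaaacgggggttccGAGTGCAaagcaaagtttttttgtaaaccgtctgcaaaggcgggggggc
The MT2A window held 7 matches, MT1H 8, MT1X 4 and SLC30A1 1, and MTF1, the fifth gene in the table, had 0. A match to either form was present in 24.8% of 35116 promoter windows of the same length. At least 7 were found in 11 windows (0.0313%), at least 8 in 6 windows (0.0171%) and at least 4 in 130 windows (0.370%). The windows of the genes themselves are among those counted. The MT2A and MT1H windows each ended in a match from 8 to 2 bases before the start. The antioxidant response element, searched as TGACNNNGC on both strands and present in 10.9% of all windows, matched once each in MT2A, MT1X and SLC30A1 and had 0 matches in MT1H. These matches describe letters, not occupied sites.

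**Figure D1:**
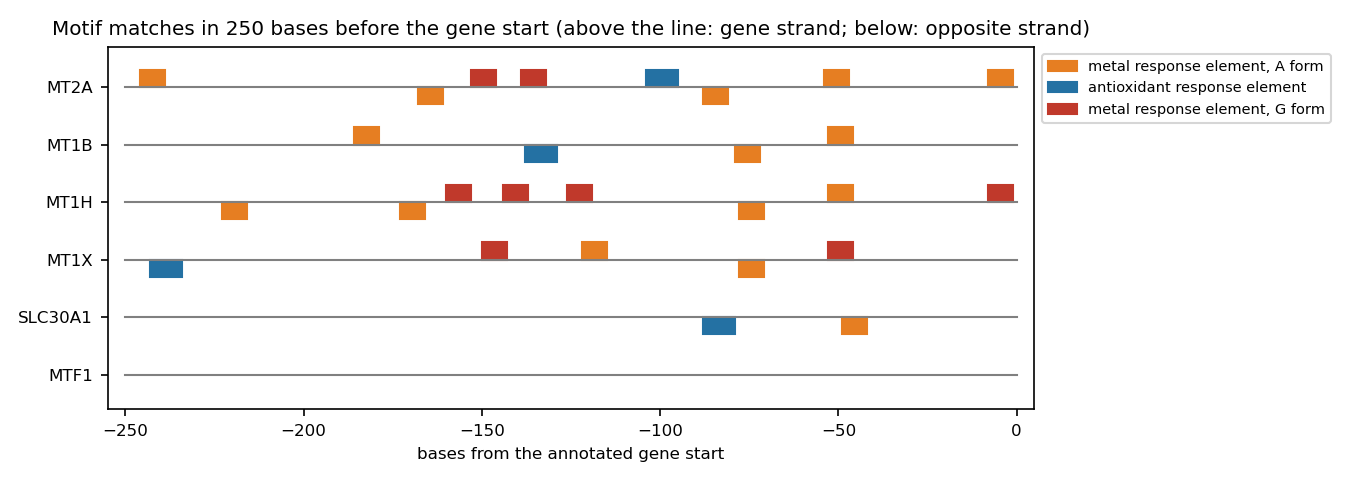
Matches to the metal response element (G form TGCGCNC, A form TGCACNC) and the antioxidant response element in the 250 bases before the annotated start, by distance from the start in bases, with gene-strand matches above and opposite-strand matches below each line. MT2A with 7 and MT1H with 8 metal response element matches are the densest of the 6 promoters, MT1X has 4, MT1B, which is no member, has 3, SLC30A1 has 1 and MTF1 has 0.

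The arrays were alike in detection, with 90.2% to 92.1% of probes above the blank spots. VIL1 itself was 5.66-fold lower on the array of its siRNA, here called the villin array, with 2.13-fold under the scanner's background column and 7.16-fold in the deposited intensities as the extremes of the settings tried. The single, dim PTK7 probe had deposited intensities of 14 on the control array and 12 on the third array, a log2 difference of -0.05 that ran from -0.67 to 0.05 with the processing. The knockdown is thus not shown by the main values, and the third array is called, by its label, the PTK7-labelled array. Whole regions of the slide differed between arrays. Medians of the 24 printed blocks reached -0.11 and 0.12 with villin siRNA, and -0.12 and 0.15 on the third array. Differences are therefore also given after scaling to the surroundings of the spot (position scaling) for every member and for most other genes named. All 7 hepatocyte markers with a probe were detected, with deposited intensities from 503 to 17375 on the control array. Their sum was 50762, 36387 and 47385 on the control, villin and PTK7-labelled arrays. The brightest markers weigh most in this sum, and it is on the deposited scale. On that scale APOB went from 3574 on the control array to 3427 on the villin array, at a normalised log2 difference of 0. On the villin array the median log2 difference of the 7 markers was -0.05, from -0.55 for ALB, encoding albumin, to 0.24 for TTR, encoding transthyretin. After position scaling ALB and TTR stood at -0.37 and 0.32, and the lowest marker was then TF, at -0.52.

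MT2A, which encodes metallothionein-2, differed most among the 10 genes. Its deposited intensity, on the authors' scale where the median of each array is 25, was 10060 on the control array, 18533 on the villin array and 14084 on the PTK7-labelled array. The control array was the lowest and the villin array the highest. In the normalised values (background correction, offset of 50 and quantile normalisation) MT2A was 2.07-fold higher with villin siRNA than with the control siRNA (a log2 difference of 1.05) and 1.56-fold higher on the PTK7-labelled array (0.64). Between the villin array and the PTK7-labelled array the difference was 1.33-fold (0.41). Both differences against the control array share that array, so they are not independent. A difference as high as 1.05 or higher was found in 43 of 15907 genes (0.270%), and one as high as 0.64 or higher in 96 of 15775 genes (0.609%) of the other comparison. These totals include dim genes, whose differences the offset shrinks. Among the 7848 genes above the median level the numbers were 42 and 96.

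The MT2A spot was bright and its surroundings were level. Its signal above the blank spots was 12709, 29670 and 18837 units on the control, villin and PTK7-labelled arrays, and its highest scanner value, 29732, was well below the brightest spot of that array, 65532. The spots around it differed from the control array by a log2 value of 0.02 and 0.04, so position scaling left MT2A at 2.02-fold and 1.52-fold. In the deposited intensities the ratios were 1.84-fold and 1.40-fold, so that on the PTK7-labelled array the gene lay past 1.5-fold in the normalised values and not in the deposited ones. Median scaling also put it under 1.5-fold there, at a log2 difference of 0.55.

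**Figure D2:**
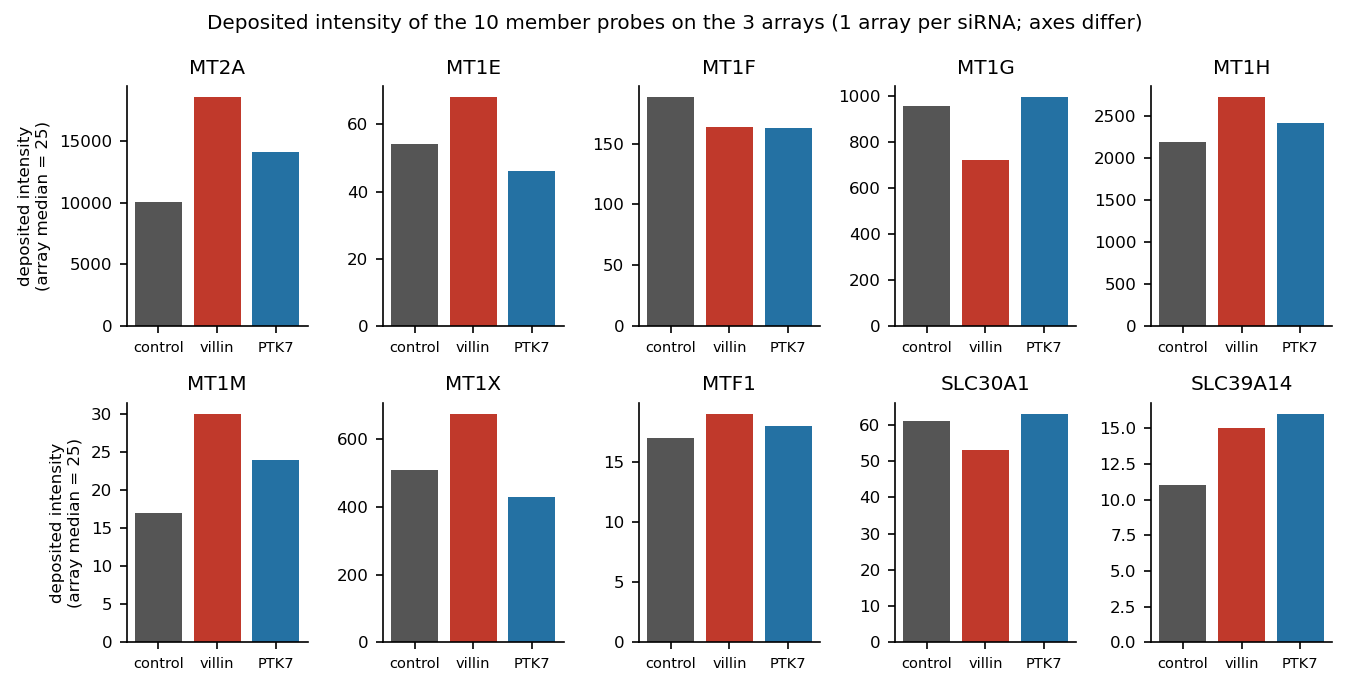
Deposited intensity (array median 25, y axes start at 0 and differ between panels) of each of the 10 probes on the control, villin and PTK7-labelled arrays, 1 array per bar. MT2A goes from 10060 to 18533 and 14084, MT1G is lowest on the villin array at 722, and MTF1 stays between 17 and 19.

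Counted at 1.5-fold, MT2A was the only one of the 10 genes that was higher on the villin array than on the control array, where 1.6% of all 15907 genes detected on both arrays were, and 0 of the 10 were lower, against 0.522% of all genes. MT2A was again the only gene past 1.5-fold on the PTK7-labelled array, against a background of 0.818%, and 0 were lower, against 0.216%. A count of 1 of 10 rests on that single gene. Among all genes the split between higher and lower calls depended on the scaling, with 255 higher and 83 lower on the villin array after quantile normalisation and 465 and 21 after median scaling. All 10 genes were detected on all 3 arrays, and none owed its place to a filter on dim probes. The median log2 difference of the 7 metallothioneins was 0.30 on the villin array and 0.11 on the PTK7-labelled array, beside -0.01 for all genes in both comparisons. The first is the value of MT1M, a weak probe, and the second that of MT1G. Probes of close paralogues may share signal and are not independent. After position scaling these medians were 0.32 and 0.08.

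**Figure D3:**
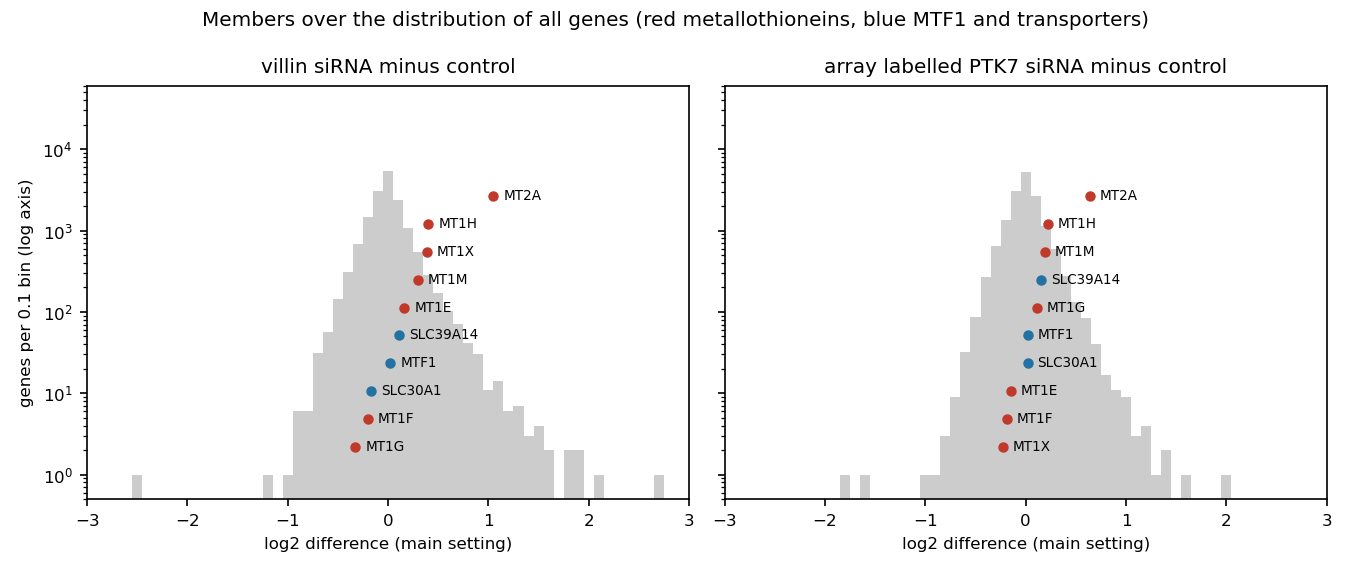
Grey bars count all genes detected on both arrays per 0.1 of log2 difference (logarithmic y axis) for the villin array (left) and the PTK7-labelled array (right) against the control array. Points mark the 10 genes at their log2 difference, and their height only separates the labels. MT2A, at 1.05 and 0.64, lies right of the bulk, and the other 9 lie between -0.33 and 0.40.

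The MT1 isoforms did not share a single pattern on these arrays, each read by 1 spot per array. Within each kind of positive control, the 48 such spots of the control array had an SD of 0.19 on the log2 scale. This is a spread between spots of 1 array, not between arrays. Smaller differences, such as those of MT1E and MT1F below, are of that size. The SD is of single spots before normalisation, so it sets no limit above which a difference between arrays is clear of spot noise. MT1H had deposited intensities of 2198, 2727 and 2417 on the control, villin and PTK7-labelled arrays, the same order of arrays as MT2A. Its log2 differences against the control array were 0.40 and 0.22. The spots around MT1H were lower on the villin array than on the control array by 0.24 on the log2 scale. After position scaling MT1H stood at 0.63 (1.55-fold) and 0.27, and it was then a second gene past 1.5-fold on the villin array, where 0.956% of all genes were.

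MT1X, an isoform expressed in many tissues, stood on opposite sides of the control array on the other arrays. Its deposited intensity was 509 on the control array, 673 on the villin array and 427 on the PTK7-labelled array. The control array lay between the other arrays, with log2 differences of 0.39 and -0.23, or 0.33 and -0.10 after position scaling. The villin array was 1.53-fold higher than the PTK7-labelled array (0.62), and MT1X was the only one of the 10 genes past 1.5-fold in that comparison, against 0.489% of all 15947 genes. Scaling brought this difference to 0.44 (1.35-fold), short of 1.5-fold. No member was 1.5-fold lower, against 0.169% of all genes.

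MT1G went the other way on the villin array. Its deposited intensities were 956, 722 and 994, so the villin array was the lowest and the others lay close together. The log2 difference was -0.33 against the control array, and 668 of 15907 genes (4.20%) were as low or lower. Among genes above the median level, 650 of 7848 were. MT1G stood at 0.11 on the PTK7-labelled array. Between the villin array and that array it differed by -0.44, a value that 102 of 15947 genes (0.640%) reached or passed. Above the median level 97 of 7850 genes did. Position scaling gave -0.30, 0.17 and -0.47. MT2A and MT1G thus lay on opposite sides of the control array on the same array.

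MT1E and MT1F differed little. MT1E, whose deposited intensities were 54, 68 and 46, was 0.16 above the control array on the villin array and 0.15 below it on the PTK7-labelled array, or 0.32 and 0.07 after position scaling. MT1F, with deposited intensities of 188, 164 and 163, had log2 differences of -0.20 and -0.19. After position scaling these were -0.00 and 0.05, and the spots around it were lower than on the control array by 0.21 and 0.28. The sign of MT1E and of MT1F on the PTK7-labelled array thus turned with position scaling.

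MT1M had a weak probe. Its deposited intensities were 17, 30 and 24, from signals of 21.4, 48.8 and 32.6 units above blank spots whose SD was 0.777, 0.759 and 0.732. The control array was the lowest. Because the offset of 50 units shrinks the differences of dim probes, the normalised log2 differences were only 0.30 and 0.19, or 0.22 and 0.08 after position scaling, whereas subtracting the blank mean alone gave 0.79 and 0.54. The spots around MT1M were themselves higher than on the control array, by 0.23 and 0.34. With plain subtraction after position scaling, a setting added after the values were seen, MT1M stood at 0.55 and 0.21, both short of 1.5-fold.

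**Figure D4:**
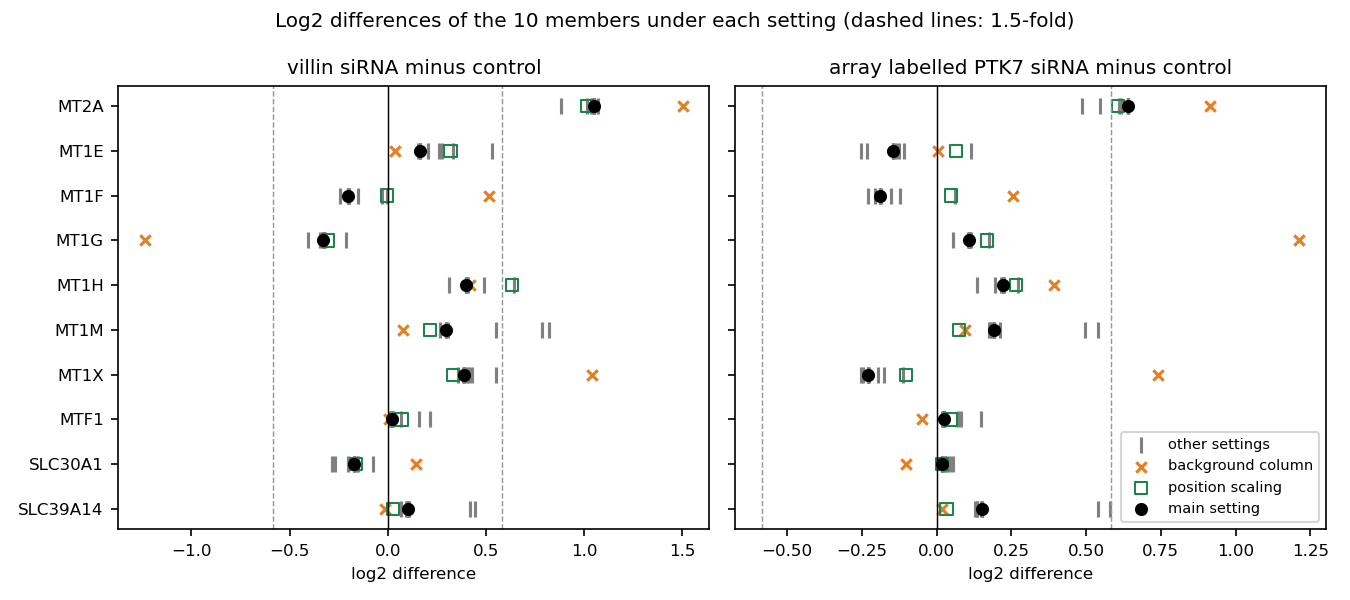
Log2 difference of each of the 10 genes against the control array for the villin array (left) and the PTK7-labelled array (right), under the main setting (black points), position scaling (squares), the scanner's background column (crosses) and the other settings (ticks), with dashed lines at 1.5-fold. MT2A stays at 0.88 or above on the left and at 0.49 or above on the right in every setting drawn, while the crosses of MT1G lie at -1.24 and 1.21.

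MTF1, which encodes the zinc-sensing regulator of the metallothionein genes, lay close together on the arrays. Its deposited intensities were 17, 19 and 18, and its log2 differences were 0.02 on both arrays, or 0.07 and 0.05 after position scaling. Plain subtraction, which does not shrink dim probes, gave 0.07 on both. The zinc exporter SLC30A1 had deposited intensities of 61, 53 and 63, with log2 differences of -0.17 on the villin array and 0.02 on the PTK7-labelled array. These were -0.16 and 0.02 after position scaling, a small difference in the direction opposite to that of MT2A on the villin array. The importer SLC39A14 had a weak probe, with deposited intensities of 11, 15 and 16 and log2 differences of 0.11 and 0.15. Its surroundings were higher than on the control array by 0.33 and 0.46, and it stood at 0.03 on both arrays after position scaling. Plain subtraction gave 0.42 and 0.58 without scaling and 0.10 and 0.13 with it.

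The other metallothionein probes of the array, which are no members, were compared with the 10 genes. Of the 10 other metallothionein genes and pseudogenes listed, 6 had a probe and 5 were detected on the arrays compared. MT1B had deposited intensities of 2668, 4749 and 2969 and was 1.92-fold higher on the villin array (0.94, and 0.75 after position scaling) and higher by 0.24 on the PTK7-labelled array (0.17 after scaling). MT1HL1, a gene like MT1H that the platform calls MT1P2, had 5293, 8501 and 6538 and was higher by 0.79 and 0.41, or 0.73 and 0.27 after scaling. Both had the order of arrays seen for MT2A and MT1H, with the control array lowest and the villin array highest. The promoter window of MT1B held 3 matches to the metal response element. MT1A and MT3 stood at 0.10 and -0.25 on the villin array and at -0.36 and -0.30 on the PTK7-labelled array, and after scaling at 0.34 and 0.01, and at -0.02 and -0.08. The pseudogene MT1DP had deposited intensities of 3 to 4, and MT4 was detected on the villin array only, at a deposited intensity of 1. Over all 12 metallothionein probes detected on the villin and control arrays, 3 were at least 1.5-fold higher, MT2A, MT1B and MT1HL1, and 0 lower. Of all genes, 1.6% were higher and 0.522% lower. Above 0 lay 9 of the 12, among them the dim MT1DP at 0.02. Probes of close paralogues may read the same transcripts, so these counts are not of separate genes. After position scaling MT1H joined MT2A, MT1B and MT1HL1 past 1.5-fold, making 4, where 0.956% of all genes were higher.

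In their order along chromosome 16 in the RefSeq annotation, genes above and below the control array were interleaved before position scaling. MT2A lies between MT3, at -0.25 on the villin array, and the pseudogene MT1L, which has no probe. MT1B, at 0.94, is followed by MT1F at -0.20, MT1G at -0.33 and MT1H at 0.40, and MT1X, at 0.39, closes the cluster. After scaling MT3 stood at 0.01 and MT1F at -0.00, which left MT1G, at -0.30, as the only one of these genes clearly below the control array on the villin array.

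The members past a threshold depended on the setting. On the villin array the second gene past 1.5-fold was MT1M in the deposited table (8.91% of all genes higher) and with plain subtraction (7.56%), MT1X with the scanner's background column (3.24%), and MT1H with position scaling followed by plain subtraction (4.69%). MT1G was past 1.5-fold lower with the background column, as were 3.8% of all genes. On the PTK7-labelled array, MT2A was short of 1.5-fold in the deposited table (6.09% of genes higher) and with median scaling (1.04%), and 0 members passed 2-fold (0.108%). With the background column MT2A, MT1G and MT1X passed there (4.46%). After position scaling 1 member was higher and 0 were lower on that array (0.108% and 0.0761% of genes), and 0 were lower on the villin array (0.314%). Between the villin array and the PTK7-labelled array no member passed in either direction after position scaling (0.451% higher, 0.119% lower) or was higher after position scaling with plain subtraction (2.82%) or at 2-fold (0.0502%). With the background column MT1G was lower there (4.11%), and the higher member was MT2A, at 0.59, in place of MT1X, at 0.30.

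**Figure D5:**
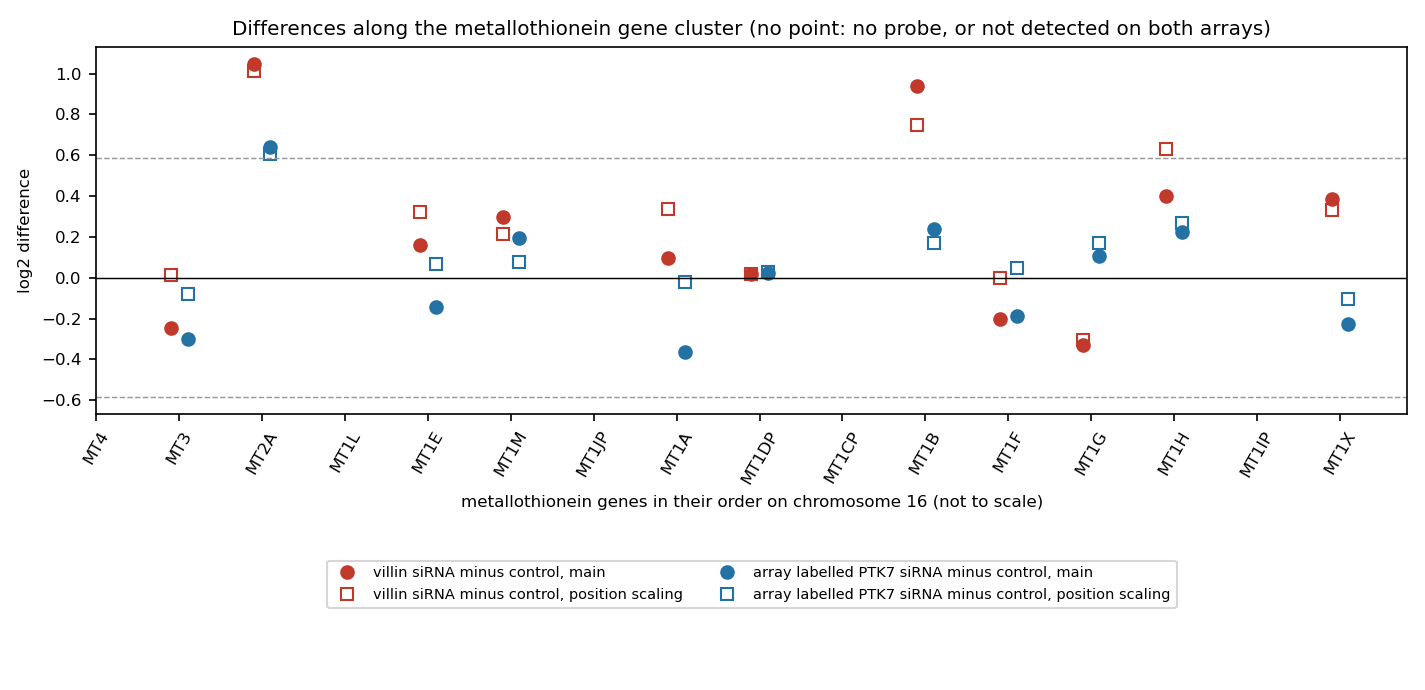
Log2 differences against the control array for the metallothionein genes in their order on chromosome 16, not to scale, for the villin array (red) and the PTK7-labelled array (blue), in the main setting (filled) and after position scaling (open), with dashed lines at 1.5-fold. On the villin array MT2A (1.05) and MT1B (0.94) stand out among neighbours between -0.33 and 0.40.

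The further zinc transporters were mostly level. Of 9 other SLC30A exporter genes, 8 were detected on the control and villin arrays, 0 lay past 1.5-fold in either comparison with the control array, and the medians were -0.05 and 0.02. Before position scaling the largest difference was that of SLC30A3, at -0.22 and -0.12. After it SLC30A3 stood at -0.18 and -0.07, and SLC30A9, a gene singled out after its values were seen, at 0.18 and 0.38. Of 13 other SLC39A importer genes, 12 were detected on the arrays compared, and 1 was at least 1.5-fold lower on the villin array, as were 0.522% of all genes, and 0 higher, with medians of -0.12 and -0.02. That gene was SLC39A7 (ZIP7), which releases zinc from the endoplasmic reticulum. Its deposited intensities were 936, 527 and 619, and its log2 differences were -0.73 and -0.50. After position scaling these were -0.48 and -0.29, so it was then short of 1.5-fold.

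Genes of copper and iron, the other metals that these proteins and SLC39A14 handle, lay within 1.5-fold. All 11 copper genes were detected, with medians of -0.00 and 0.02. Before position scaling the largest differences were 0.29 for COMMD1, which takes part in copper export, on the villin array and 0.42 for SCO2, a copper chaperone of cytochrome oxidase, on the PTK7-labelled array. The first became 0.07 and the second -0.22 after scaling, and COMMD1 was then no longer the largest. All 12 iron genes were detected, with medians of -0.01 and 0.03. HAMP, encoding the iron hormone hepcidin, had the largest difference on the villin array before scaling, at -0.52. After scaling it stood at -0.42 and TF, the transferrin gene, at -0.52. FTH1, the ferritin heavy chain gene, had the largest on the PTK7-labelled array before scaling, at 0.32, which became -0.19 and was then no longer the largest.

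Genes of metal and oxidative stress, which share inducers with the metallothioneins, lay on both sides of the control array. Of 11 such genes, all detected, 2 were at least 1.5-fold higher and 2 lower on the villin array (median 0.06), where 1.6% and 0.522% of all genes were. On the PTK7-labelled array 2 were higher and 0 lower (median 0.18), beside 0.818% and 0.216% of all genes. The haem oxygenase gene HMOX1, a cadmium- and NRF2-responsive gene, had deposited intensities of 954, 567 and 689 and log2 differences of -0.67 and -0.40, or -0.65 and -0.31 after position scaling. The quinone reductase gene NQO1 stood at -0.59 and 0.01, or -0.35 and 0.02 after scaling. HSPA1A, an inducible heat shock protein gene, stood at 0.80 and 0.96 by its brighter probe and at 0.26 and 0.45 by the other, and HSPH1 at 0.71 and 0.61. After scaling the brighter HSPA1A probe stood at 0.37 and 0.41, the other turned to -0.19 and -0.07, and HSPH1 at -0.02 and -0.21, so that HMOX1 was the only gene of this list past 1.5-fold after scaling, on the villin array. HSPA1B, nearly identical to HSPA1A, lay at -0.33 and -0.49, or -0.17 and -0.15 after scaling, and these probes cannot be assigned to one gene each. On the villin array HMOX1 thus lay below the control array and MT2A, which is not in this list, above it, before and after position scaling. MT1G lay below it as well. With the scanner's background column HMOX1 stood above the control array, at 0.46.

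In the normalised values, the lists for the other known inducers held no gene past 1.5-fold. Of all genes, 1.6% were higher and 0.522% lower on the villin array, and 0.818% and 0.216% on the PTK7-labelled array. Several of these probes were dim, and the offset shrinks their differences. Deposited intensities on the control array were 6 for TSC22D3 and SOCS3 and 7 for SAA1. With plain subtraction the 2 PER1 probes stood at -0.61 and -0.77 on the villin array, where 5.76% of all genes were 1.5-fold lower. Of 8 glucocorticoid-responsive genes, 7 were detected on the arrays compared, with medians of -0.02 and -0.05, and before scaling PER1 had the largest difference on the villin array at -0.25 and DUSP1 on the PTK7-labelled array at -0.15, close to NR3C1, the receptor gene, at 0.15. After scaling PER1 stood at -0.25, DUSP1 at -0.02 and NR3C1 at 0.18. Of 11 acute phase genes that respond to interleukin 6, 10 had a probe and all were detected, with medians of -0.10 and -0.00. FGB, the fibrinogen beta chain gene, had the largest difference on the villin array at -0.41 (-0.43 after scaling). STAT3 had the largest on the PTK7-labelled array before scaling, at 0.13 beside 0.13 for FGG, and after it STAT3 stood at 0.09 and FGG at 0.32.

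Some markers of other cell types differed alongside MT2A. Of 5 immune markers, all with a probe, the summed deposited intensity was 539, 837 and 690 on the control, villin and PTK7-labelled arrays. LYZ, encoding lysozyme, accounted for 226, 455 and 383 of it, and the sum without LYZ was 313, 382 and 307. LYZ had log2 differences of 0.89 and 0.67, or 0.94 and 0.74 after position scaling. The leukocyte gene PTPRC had a deposited intensity of 2 on the control array and was not detected on the others. CD68 had 281, 346 and 272, CD14 had 15, 26 and 24, and CD3E had 15, 10 and 11. Of 5 fibroblast markers the sum was 107, 158 and 150, with DCN at 79, 91 and 85 and PDGFRB at 22, 60 and 60. COL1A1 was at 2 on every array and COL1A2 was not detected on any. PDGFRB had log2 differences of 0.68 and 0.72, or 0.48 and 0.41 after position scaling, then short of 1.5-fold. DCN went from 0.08 and 0.06 to -0.23 and -0.27 after scaling. For 3 endothelial markers with a probe the sum was 49, 50 and 47. All cultures were of a single line, HepG2, so these values are levels of marker transcripts and not counts of other cell types. The part of these markers in the MT2A difference was not tested, and RNA of whole cultures gives no share of cells that carry them.

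The 5 genes nearest to MT2A in both differences against the control array, among 7841 other genes above the median level, were ANXA3, SH3RF2, TMSB10, CRYAB and MXRA7. The measure was the Euclidean distance over the pair of log2 differences, which rests on 3 arrays, and it ran from 0.015 for ANXA3 to 0.093 for MXRA7. ANXA3, an annexin gene, had deposited intensities of 394, 845 and 624 and log2 differences of 1.06 and 0.63, or 0.97 and 0.69 after position scaling. CRYAB, encoding the small heat shock protein alpha-B crystallin, had 107, 253 and 194 and differences of 0.98 and 0.67, or 0.94 and 0.63 after scaling. TMSB10, a thymosin gene, went from 1.02 and 0.59 to 0.63 and 0.28 after scaling, SH3RF2 from 1.07 and 0.67 to 0.59 and 0.14, and MXRA7 from 1.01 and 0.72 to 0.84 and 0.45.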

How the data were processed

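Single-colour microarrays of HepG2 RNA were used, 1 array for each of 3 siRNA groups, grouped by the siRNA named in the labels. Per the file headers, the scanner files give a red-channel spot intensity and a local background for 27456 spots (2680 blank), both unnormalised. The authors' deposited table holds intensity values as whole numbers. They matched the spot median minus the blank mean, scaled to a median of 25 per array, within 1 unit for every probe with a value, and probes without a value were exactly those not detected here. How the authors computed it is not given in the sources used here.

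Background was corrected by normexp, offset 50 (limma 3.58.1, R 4.3.3), taking the blank-spot mean (5% trimmed at each end) as background, followed by quantile normalisation. A probe was detected if it was unflagged and exceeded the blank mean by over 2 blank SDs. The brightest probe by mean signal stood for a gene with several. Of 24460 probes, 20236 had 1 symbol; 2899 symbols were updated and 99 not matched to RefSeq. Position scaling divided the signal by the local median deviation of an array from the mean of the 3 (11 columns by 5 rows). Tables and plots were made in Python 3.11.15 with matplotlib 3.10.9, pandas 2.3.3 and numpy 2.4.6. The background correction and quantile normalisation were tested on simulated arrays, with changes placed in brighter spots only. Position scaling, detection and changes in dim probes were not tested in this way.

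With 1 array per group no test was run: differences are sizes, and the number of arrays limits the precision. Named genes were the 10 members, the siRNA targets, list genes past 1.5-fold or, failing that, the one with the largest difference, and the 5 genes nearest to the member that differed most. Cell type markers were summed as whole lists, with only some of them named. The remaining metallothioneins with a probe were all named. The members, lists and settings were chosen with earlier results of these data known. Alternatives were cyclic loess or median scaling, plain subtraction, no background correction or the background column, the deposited values, position scaling, no filter or one at 5 SDs, the mean of probes, a 2-fold threshold and, added after seeing the values, position scaling with plain subtraction.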

Additional observations from a re-analysis of the deposited data

How the results depend on the processing

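No paired analysis was possible because each group has 1 array and the labels give no replicate numbers; for the same reason no replicate could be left out. Across 11 alternatives MT2A lay between 0.88 and 1.502 on the log2 scale on the villin array against the control array and between 0.49 and 0.91 on the PTK7-labelled array, always higher. On the villin array 2 members were at least 1.5-fold higher, in place of 1, with the deposited table, with plain subtraction, with the background column, with position scaling and with position scaling and plain subtraction, and 1 was lower, in place of 0, with the background column. On the PTK7-labelled array 0 members were higher, in place of 1, with median scaling, with the deposited table and at a 2-fold threshold, and 3 with the background column. Between the villin array and that array 0 members were higher, in place of 1, with position scaling, alone or with plain subtraction, and at 2-fold, and 1 was lower, in place of 0, with the background column. The metallothionein median on the villin array went from 0.30 to 0.53 with position scaling and plain subtraction, and on the PTK7-labelled array from 0.11 to 0.39 with the background column. The cause of these shifts was not tested, apart from the 2-fold threshold, which is stricter. The background column follows the spot signal across probes (r = 0.981, 0.989 and 0.983 on the log2 scale for the 3 arrays), and among the 10 members MT1G moved most under it, from -0.33 to -1.24 and from 0.11 to 1.21. The remaining alternatives, cyclic loess, no background correction, the other filters and the mean of probes, left these counts as they were, and the filters and the mean of probes could not change a member, since each was detected everywhere by its 1 probe. Over all genes, 255 were at least 1.5-fold higher on the villin array and 129 on the PTK7-labelled array, against 465 and 164 with median scaling, 1418 and 961 in the deposited table, 1203 and 1114 with plain subtraction, 516 and 703 with the background column, 152 and 17 with position scaling, 746 and 454 with both, and 47 and 17 at 2-fold. The lower counts, 83 and 34, became 21 and 20, 656 and 1018, 916 and 891, 605 and 653, 50 and 12, 601 and 434, and 2 and 2 in the same order, and 34 became 22 with cyclic loess. Between the villin array and the PTK7-labelled array 78 higher and 27 lower became 121 and 15, 809 and 284, 507 and 458, 518 and 655, 450 and 425, and 8 and 1, leaving out position scaling, where both stayed within 1.5 times. Dim probes (MT1M, MTF1 and SLC39A14) are limited by the offset and by whole-number rounding in the deposited table.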
